A study of Mus musculus with 18 samples.

Results

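Matrix metalloproteinases (Mmp) and the tissue inhibitors of metalloproteinases (Timp) were followed over the day in single cells of mouse dorsal dermis. The set holds 10 of the 32285 genes in the files, 6 proteases (Mmp2, Mmp3, Mmp9, Mmp14, Mmp19 and Mmp23) and 4 inhibitors (Timp1, Timp2, Timp3 and Timp4). They were taken by gene symbol, with earlier results of these data known, and each symbol matched 1 gene. Droplet-based 3′ single-cell RNA sequencing was applied to 18 mice, 3 at each of the zeitgeber times (ZT, hours after lights on) 2, 6, 10, 14, 18 and 22, with 1 library per mouse. All mice were male wild-type C57BL/6J animals under equal light and dark periods, with hair follicles in the resting phase (telogen), and no treatment or second genotype was compared. Skin was digested with collagenase and live cells were sorted, so cells that do not survive the digestion, and fat and blood vessels scraped away beforehand, are under-represented. Replicates are separate mice, and the replicate number is the day of collection.

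The proteases of this family cut collagens, gelatin, proteoglycans and other proteins outside the cell, and in skin they take part in matrix turnover, hair follicle remodelling and wound repair. They are made as inactive precursors. Mmp14, which stays anchored in the cell membrane, activates the precursor of Mmp2 with the help of Timp2, while Timp1 to Timp4 block active enzymes by binding them. Timp3 is held in the matrix and also inhibits proteases of the Adam and Adamts families.

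In the GRCm38 annotation each member is a protein-coding gene. Mmp14 lies on the plus strand of chromosome 14 (54431612 to 54445364), Mmp9 on chromosome 2 (164940780 to 164955850), Mmp2 on chromosome 8 (92827291 to 92853420) and Mmp3 on chromosome 9 (7445822 to 7455975). Mmp19 (128790910 to 128800824) and Timp3 (86300372 to 86349506) share chromosome 10. Mmp23 lies on chromosome 4 (155650655 to 155653384), Timp1 on chromosome X (20870166 to 20874735), Timp2 on chromosome 11 (118301069 to 118355740) and Timp4 on chromosome 6 (115241892 to 115252205).

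The 250 bases upstream of the RefSeq start (GRCm38.p6) are shown for Mmp14, since it was the member with a 24 h rhythm in fibroblast-like cells, and for Mmp3, the only one of 8 member promoter entries that held a motif searched. Mmp3 was added after its match was seen. Capitals mark the AP-1 motif.
Mmp14, chr14:54431348-54431597, plus strand: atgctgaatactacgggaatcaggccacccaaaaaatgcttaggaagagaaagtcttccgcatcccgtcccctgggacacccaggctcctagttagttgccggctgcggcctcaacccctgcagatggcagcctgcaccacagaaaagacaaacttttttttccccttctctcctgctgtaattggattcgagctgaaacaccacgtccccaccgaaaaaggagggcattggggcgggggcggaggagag
Mmp3, chr9:7445572-7445821, plus strand: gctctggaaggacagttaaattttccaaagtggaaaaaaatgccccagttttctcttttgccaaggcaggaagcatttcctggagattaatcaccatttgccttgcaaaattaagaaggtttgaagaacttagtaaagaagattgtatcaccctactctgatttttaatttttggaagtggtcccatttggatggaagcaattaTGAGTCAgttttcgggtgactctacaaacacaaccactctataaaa
The motifs were the E-box CACGTG, the AP-1 motif TGAGTCA or TGACTCA, the D-box TTATGTAA or TTACGTAA and the half-site AGGTCA, each searched on both strands from 250 bases before to 50 bases after the start. Of 32851 mouse promoters of that length, 7.15% held the E-box, 5.20% the AP-1 motif, 1.06% the D-box and 16.3% AGGTCA. The Mmp14 window held none of them, and in the window of Mmp3 the AP-1 motif started 46 bases before the start. The 250 upstream bases shown had a GC content of 55.2% for Mmp14 and 37.6% for Mmp3. Entries were found for Mmp3, Mmp14, Mmp23, Timp1, Timp2, Timp3 and Timp4, and not for Mmp2, Mmp9 and Mmp19.

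Of 23990 barcodes, 16877 passed the filter on cells, with between 3777201 and 40094033 UMIs (counted transcripts) per library. Clusters were named from marker genes. Fibroblast-like cells made up 12061 cells and immune-like cells 3054, of which 1406 were macrophage-like. The fibroblast-like pseudobulks, the counts summed per library, held 2881936 to 33985740 UMIs, against 452260 to 5597019 for immune-like cells. Macrophage-like cells were described in 16 libraries, because ZT6 replicate 2 and ZT18 replicate 1 held fewer than 20 of them. The library of ZT14 replicate 1 stood apart: its neutrophil cluster (S100a9, S100a8) made up 14.7% of its cells, against at most 1.27% in the other 17 libraries. In its immune-like cells the 6 neutrophil markers summed to 130.1 UMIs per 10000, against a median of 3.30 and a maximum of 19.4 elsewhere. Several results that rest on this library are given with and without it. ZT6 replicate 2 and ZT10 replicate 3 shared 89 barcodes, of which none was kept in the former. All 12 genes of a clock check passed the test for a 24 h rhythm in fibroblast-like cells. Arntl, an activator of the clock, peaked at 22.6 h (edgeR quasi-likelihood test, Benjamini-Hochberg adjusted p = 2.94e-08), and Dbp, a target of that activator, at 9.88 h (adjusted p = 4.99e-08).

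Levels are UMIs per 10000 UMIs of a library's cells of 1 type. A UMI counts a captured transcript end and does not scale with gene length. In fibroblast-like cells the inhibitors were led by Timp2, with 36.1, 41.1 and 46.4 in the lowest, median and highest library, and by Timp3, with 8.41, 10.4 and 11.5. Among the proteases, Mmp2 (gelatinase A) was the highest, with 12.55, 14.29 and 15.98. The ranges of Timp2, Mmp2 and Timp3 did not overlap one another. Mmp23, a membrane protease released by proteolytic cleavage, had 2.46, 3.17 and 3.75. Mmp3 (stromelysin 1) had 1.31, 2.56 and 4.44, and Mmp14 had 1.44, 2.08 and 3.19. The ranges of these proteases overlapped. Within libraries, Mmp23 was above Mmp14 in all except ZT6 replicate 2. Mmp3 was above Mmp23 in some libraries and below it in others, and likewise for Mmp14, so its place in the order is not fixed. Mmp19, a secreted protease with basement membrane substrates, had 0.211, 0.280 and 0.489, and Timp1 had 0.134, 0.193 and 2.26. Mmp9 (gelatinase B) was nearly absent, with 190 UMIs in 52 of 12061 cells, and 121 of those UMIs lay in fibroblast-like cluster 22.

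The expressed members differed in how they were spread over fibroblast-like cells. Timp2 had a UMI in 99.98% of cells (exact 95% interval 99.93 to 99.99%), Mmp2 in 99.7% and Mmp14 in 90.4%. The interval covers counting error over cells and not the spread between mice. Mmp3 had a UMI in 40.1% of cells and Timp1 in 23.3%, and 1% of the cells held 22.8% of all Mmp3 UMIs and 34.6% of all Timp1 UMIs. For Mmp2 that share was 3.64%. Without ZT14 replicate 1 these shares were 23.1% for Mmp3, 28.95% for Timp1 and 3.66% for Mmp2. The median was 22260 UMIs per cell.

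Immune-like cells had another set of members. The level of Mmp9 was 0.356, 0.830 and 3.45 in the lowest, median and highest library, above that of fibroblast-like cells in 18 of 18 libraries. Mmp19 was at 0.0933, 0.920 and 3.16 and was above the fibroblast level in 14 of 18 libraries, with overlapping ranges. Timp2 was at 4.46, 7.32 and 11.8, below the fibroblast level in every library. To read low values, the summed level of the 6 fibroblast markers was taken in the same libraries: its median ratio of immune-like to fibroblast-like cells was 0.0109, which free RNA or mixed droplets can give. The ratio of Mmp3 (0.00992) and of Timp3 (0.00867) lay below it, and these levels in immune-like cells are read as background. The ratio of Mmp2 was 0.0120, near that of the markers, while Mmp23 (0.0158), Mmp14 (0.0219), Timp1 (0.119) and Timp2 (0.170) lay above it. Of these, Timp2 had a UMI in 74.6% of immune-like cells, Mmp23 in 4.09%, Mmp14 in 3.24% and Timp1 in 3.64%, and Mmp2 had one in 10.6%. Whether Mmp23 and Mmp14 exceed background there was not tested. The share of immune-like cells with a UMI was 33.9% for Mmp9, with a median of 11880 UMIs per cell, against 0.431% of the more deeply sequenced fibroblast-like cells.

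**Figure D1:**
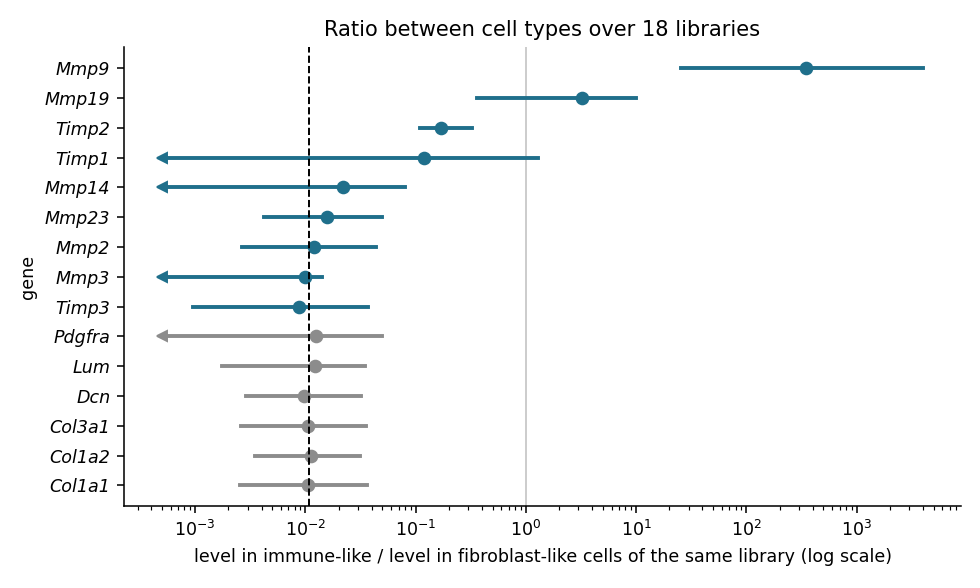
Ratio of the level in immune-like cells to that in fibroblast-like cells of the same library (log scale) for 9 members (blue) and 6 fibroblast markers (grey). Points are medians over 18 libraries, lines run from the lowest to the highest library, arrows mark a lowest value off the axis, and the dashed line is the marker sum at 0.0109. Mmp9 and Mmp19 have medians above 1, and Mmp3 and Timp3 lie at or below the dashed line.

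Within the immune-like cells, macrophage-like cells had more Mmp9 and Timp2 than the others. In macrophage-like cells the level of Mmp9 was 0.508, 2.48 and 4.79 in the lowest, median and highest of 16 libraries, and in the other immune-like cells it was 0, 0.0918 and 0.983 over 17 libraries. Macrophage-like cells were above the others in 15 of 16 libraries. The exception was ZT14 replicate 1, with 0.508 against 0.791 in the other immune-like cells. Timp2 was at 9.54, 12.7 and 15.2 in macrophage-like cells and at 0.810, 1.85 and 5.50 in the other immune-like cells, with no overlap and a median ratio of 5.28. Timp2 was detected in 99.4% and Mmp9 in 63.4% of macrophage-like cells. By cluster, over all libraries summed, Mmp9 reached 4.15 in the neutrophil cluster of 147 cells, 62.6% of which came from ZT14 replicate 1. Without that library Mmp9 was at 4.72 there. With all libraries, Mmp9 reached 2.84 in the macrophage-like cluster led by Fcna, Cd209f and Lyve1, and 1.69 in the one led by Gdf15, Hmox1 and Cd83.

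Mmp19 was highest in another immune-like cluster than Mmp9, and both were found in the Gdf15 cluster. The level of Mmp19 was 4.43 in the cluster led by Lyz1 and Ear2 and 3.73 in the macrophage-like cluster led by Gdf15. Without ZT14 replicate 1 these levels were 3.82 and 3.50. The Lyz1 cluster ranged from 1.101 to 8.66 over libraries and overlapped the Gdf15 cluster. In the monocyte cluster led by Ly6c2 it was 1.04, and 0.401 without ZT14 replicate 1. In the larger macrophage-like cluster led by Fcna it was 0.177, and 0.0971 without that library. The macrophage-like clusters did not overlap, as the Gdf15 cluster ranged from 1.102 to 7.41 over libraries and the Fcna cluster from 0.0428 to 0.979. The highest Fcna value was that of ZT14 replicate 1, and the next was 0.192 in ZT14 replicate 3. Among immune-like cells, 1% of the cells held 49.3% of the Mmp19 UMIs.

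Timp4 was found in few cells. It had 105 UMIs over all cells, of which 93 were in the 27 cells of the endothelial-like cluster led by Fabp4, Aqp1 and Cdh5, a level of 4.17. Fibroblast-like cells had 7 UMIs in 5 of 12061 cells. Immune-like cells had 0 UMIs in 3054 cells, and the floor of 3 UMIs corresponds to 0.000742 per 10000. The same endothelial-like cells had a Timp3 level of 13.7, a Timp2 level of 0.404 and 4 UMIs of Mmp2, and this cluster was singled out after its values were seen.

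**Figure D2:**
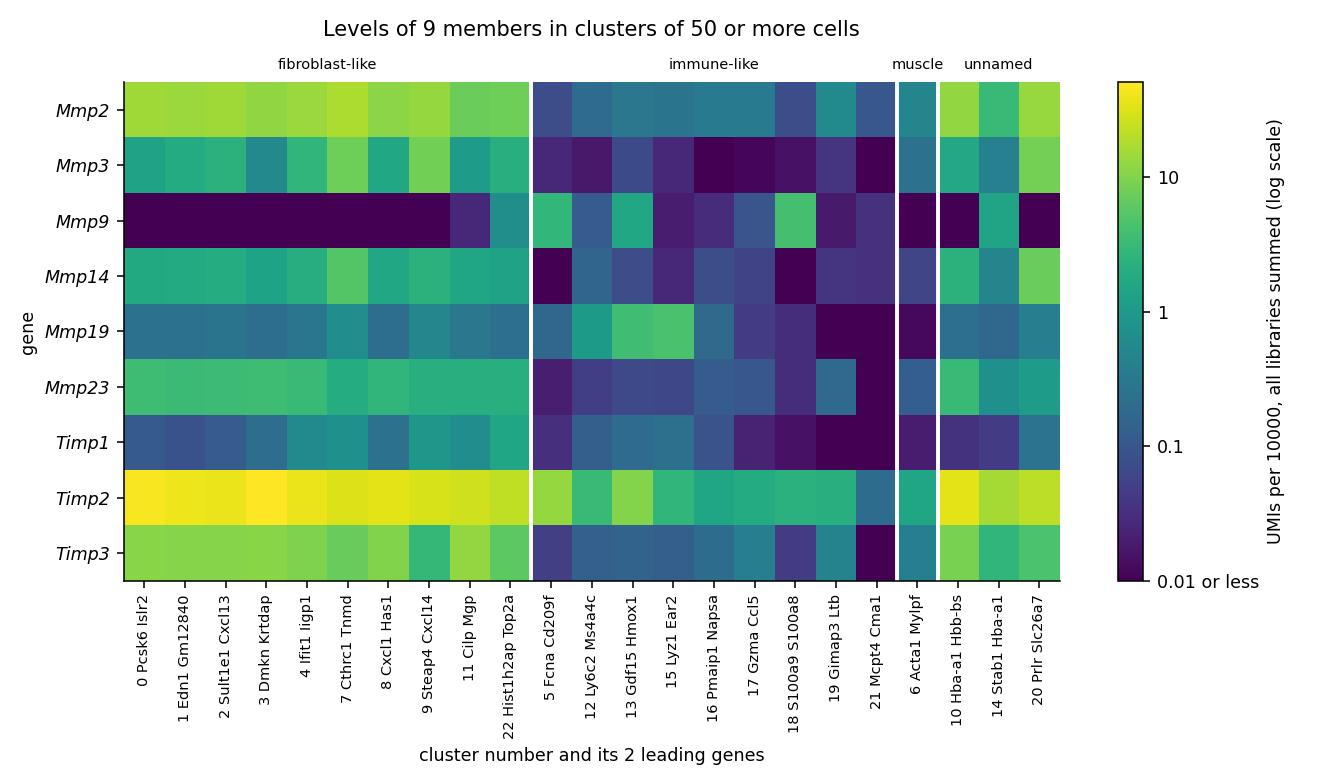
Level of 9 members (rows) in each cluster of 50 or more cells (columns, named by number and 2 leading genes), as UMIs per 10000 with all libraries summed, on a log colour scale cut at 0.01. Timp2, Mmp2 and Timp3 are high across fibroblast-like clusters, Mmp3 stands out in clusters 7, 9 and 20 and Mmp14 in clusters 7 and 20, and Mmp9 and Mmp19 are highest in different immune-like clusters.

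Of 10 fibroblast-like clusters, 9 were ranked by their levels over libraries, and these differed most in Mmp3. Its median level over libraries was 7.95 in the cluster led by Steap4 and Cxcl14 and 6.92 in the cluster led by Cthrc1 and Tnmd, and these clusters did not separate, the first being higher in 5 of 10 shared libraries. The lowest median was 0.411, in the cluster led by Dmkn and Krtdap, where Mmp3 was lower than in the Steap4 cluster in 10 of 10 libraries with a median ratio of 26.3. Mmp14 was highest in the Cthrc1 cluster, at 4.996, above the Steap4 cluster (2.26) in 10 of 10 libraries and 3.53 times the level of the Dmkn cluster. The Cthrc1 cluster was also the highest in Mmp2, at 17.37 against 14.98 for the next cluster, in 13 of 13 libraries. It had the lowest median of Mmp23 (2.01), and the cluster led by Pcsk6 and Islr2 the highest (3.58). The unnamed cluster led by Prlr and Slc26a7, with 60 cells, had Mmp3 at 8.68 and Mmp14 at 7.14.

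The inhibitors had a different order. Timp2 was highest in the Dmkn cluster, at 50.5, and lowest in the cluster led by Cilp and Mgp, at 28.5, higher in 11 of 11 libraries. Timp3 ran from 12.4 in the Cilp cluster to 2.34 in the Steap4 cluster, with no overlap. Among the ranked clusters Timp1 was highest in the Steap4 cluster (0.933) and lowest in the cluster led by Edn1 (0.0788), a median ratio of 11.4 over 11 libraries. In cluster 22, the fibroblast-like cluster not ranked, Timp1 was at 1.54 with all libraries summed (1.55 without ZT14 replicate 1), against 0.928 in the Steap4 cluster. Timp2 in cluster 22 was at 22.9, against 27.95 in the Cilp cluster with all libraries summed. Mmp9 in cluster 22 was at 0.676, against 0.0263 in the Cilp cluster, the next fibroblast-like cluster. Its Mmp2 level was 7.65 and its Timp3 level 5.89. Whether cluster 22 holds mixed droplets or cells of more than 1 type was not tested. The summed level of the Timp members was 2.34 times that of the Mmp members in fibroblast-like cells (range 1.97 to 2.81 over 18 libraries), with other Mmp genes not included. By cluster this ratio was 1.24 in the Cthrc1 cluster (0.971 to 1.53) and 1.30 in the Steap4 cluster, against 3.30 in the Dmkn cluster (2.91 to 3.93) and 3.49 in the Cilp cluster. The ratio counts transcripts and not protein activity. The clusters were built from these cells without the member genes, so their differences in level are descriptions without a test.

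Genes with the most similar pattern over 23 clusters, which share the same libraries, were named by Pearson's r of log2(UMIs per 10000 + 1) among 4336 genes, as a description. For Mmp2 they were Col5a1 (r = 0.995), Aebp1 (0.994) and Rarres2 (0.990), and for Mmp14 they were Fkbp10 (0.974), C1qtnf6 (0.974) and Cpz (0.971). Mmp3 was nearest to Col18a1 (0.945), Mmp14 (0.941) and Gxylt2 (0.940). Mmp9 was nearest to Osbpl9 (0.945), Ddx60 (0.937) and Oas2 (0.898), and Mmp19 to Slamf8 (0.854), 2310022A10Rik (0.838) and Gm14636 (0.831). Mmp23 had Fndc1 (0.995), Scara5 (0.995) and Adgrd1 (0.994). Among the inhibitors, Timp2 had Rnase4 (0.979), Mir99ahg (0.966) and Laptm4a (0.963), Timp3 had Akap12 (0.987), Angptl2 (0.986) and Tnxb (0.984), and Timp1 had weaker matches, led by Cav1 (0.820), Prdx4 (0.811) and Ckap4 (0.791).

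To ask which members cycled over the day, a 24 h cosine was tested on the summed counts. In fibroblast-like cells 1 of the 8 members tested was called, Mmp14, where 12.9% of 12821 genes were called, and 2 members had an unadjusted p under 0.05 (Mmp14 and Timp1), as did 28.9% of genes. Its levels in replicates 1, 2 and 3 were 3.19, 2.12 and 2.29 at ZT2, 2.80, 3.1 and 1.72 at ZT6 and 2.33, 1.74 and 2.06 at ZT10. In the dark period they were 1.66, 1.57 and 1.44 at ZT14 and 1.85, 1.59 and 1.67 at ZT18, and 2.10, 2.49 and 2.38 at ZT22. Every library of ZT14 and ZT18 was below every library of ZT2 and ZT22, while ZT6 and ZT10 overlapped with both. Peak exceeded trough by 1.74 times (log2 amplitude 0.40), with the peak at 3.35 h (edgeR quasi-likelihood test, adjusted p = 0.00643). A cosine fitted to the levels had an amplitude of 0.537 ± 0.147 (SE, n = 18), which is 25.4% of its mean level of 2.12, and a peak at 3.17 ± 0.832 h (SE). The adjusted p stayed between 0.000696 and 0.0199 with any 1 library left out, and was 0.0102 without ZT14 replicate 1. JTK_Cycle, a rank test with an exact null distribution, gave p = 0.0708 for Mmp14, multiplied by its 18 templates and not adjusted over genes. It called no member in fibroblast-like cells, where it called 7.7% of genes. Timp3 had the same exact JTK_Cycle p of 0.0708 there, so this rank test did not set Mmp14 apart from Timp3. The 10 immediate early genes, which respond to tissue digestion, summed to 85.8 to 99.3 UMIs per 10000 at ZT14 and to 107.2 to 166.3 at ZT6 in these cells. Their sums at ZT2, ZT18 and ZT22, which the Mmp14 contrast also involves, are not given here. The part of these genes in the Mmp14 difference was not tested.

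The rhythm of Mmp14 was seen within fibroblast-like clusters. In the 4 clusters with enough cells at every time, Mmp14 was called in each, against 8.51%, 7.06%, 7.32% and 2.62% of genes. These clusters come from the same mice and are part of all fibroblast-like cells, so the calls are not independent. In the cluster led by Pcsk6 the peak was at 1.94 h and peak exceeded trough by 1.62 times (edgeR, adjusted p = 0.000190). The peak was at 3.25 h in the Edn1 cluster (adjusted p = 0.00144), at 2.84 h in the cluster led by Sult1e1 and Cxcl13 (adjusted p = 0.00229) and at 2.83 h in the interferon-response cluster led by Ifit1 (adjusted p = 0.0142). The last call was lost without ZT2 replicate 1 or without ZT14 replicate 3, with adjusted p up to 0.0692. In the Cthrc1 cluster, with the highest level, libraries were too few for the test, and the cosine had an amplitude of 1.2 ± 0.471 (SE, n = 13) around 5.09. In the sum of all cells Mmp14 was also called (adjusted p = 0.0177).

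**Figure D3:**
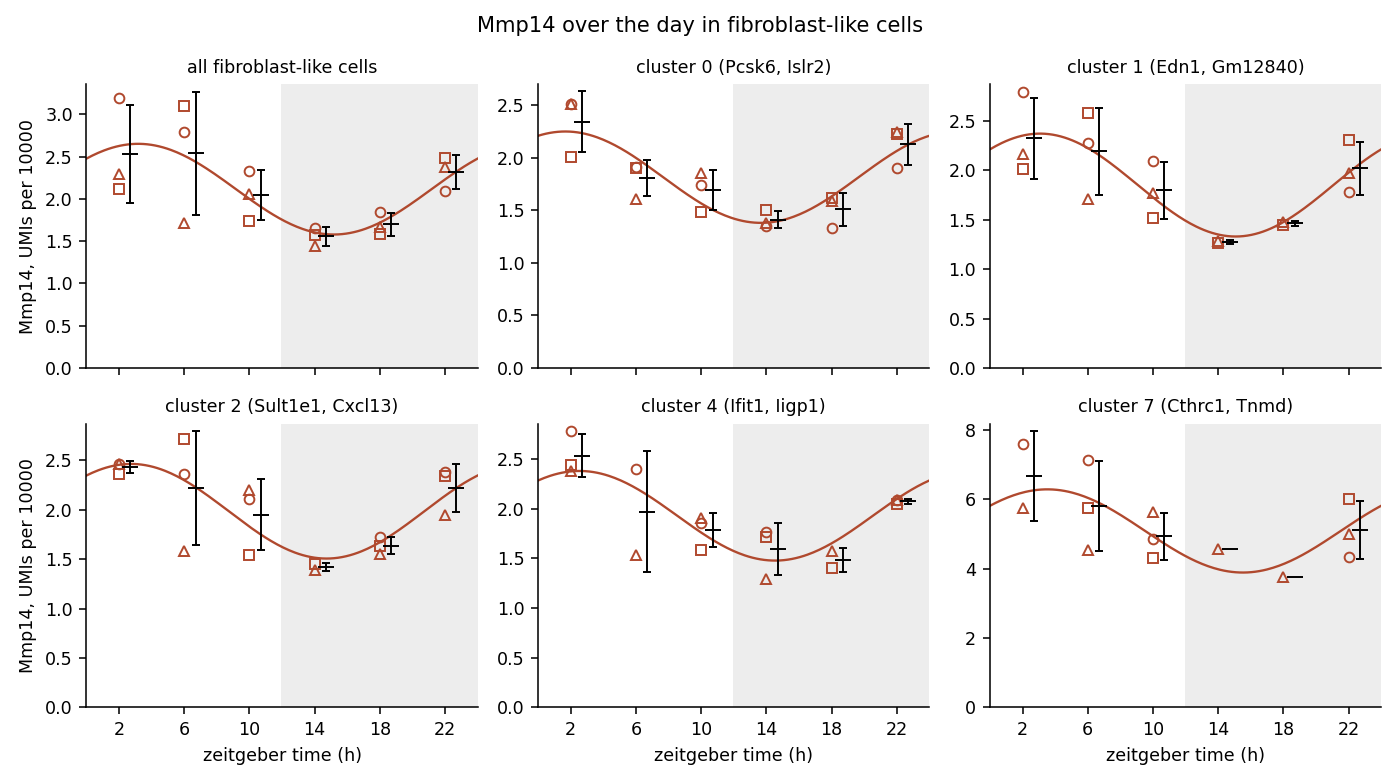
Mmp14 in UMIs per 10000 against zeitgeber time (h, dark period shaded) in all fibroblast-like cells and in 5 clusters, with circles, squares and triangles for replicates 1, 2 and 3. Black bars are mean ± SD of each time, and curves are fitted 24 h cosines. In all fibroblast-like cells the 3 libraries of ZT14 lie between 1.44 and 1.66 and those of ZT22 between 2.10 and 2.49. The Cthrc1 cluster (7) is on a higher scale and was not tested.

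Mmp9 cycled in macrophage-like cells, where it was the 1 member called of 6 tested and 0.588% of 9183 genes were called (54 genes, and 138 without ZT14 replicate 1). By an unadjusted p under 0.05 it was 3 of 6 (with Timp1 and Mmp19), against 12.8% of genes. The levels of Mmp9 were 3.12, 4.79 and 2.62 at ZT2, 4.03 and 3.77 at ZT6 (replicates 1 and 3) and 2.33, 1.53 and 1.34 at ZT10. They were 0.508, 0.609 and 1.12 at ZT14, 1.40 and 1.82 at ZT18 (replicates 2 and 3) and 3.16, 3.09 and 3.07 at ZT22. The libraries of ZT14 were below those of all other times, and those of ZT2, ZT6 and ZT22 above those of ZT10, ZT14 and ZT18. Peak exceeded trough by 4.55 times, with the peak at 2.57 h (log2 amplitude 1.09, edgeR quasi-likelihood test, adjusted p = 0.00205). The cosine had an amplitude of 1.53 ± 0.277 (SE, n = 16) around 2.40. The adjusted p was 0.000562 to 0.00905 over the fits that left out 1 library, and 0.00144 without ZT14 replicate 1. JTK_Cycle, over all 18 libraries with those of few macrophage-like cells included, gave an exact p of 0.000534, where it called 3.77% of genes. In the larger macrophage-like cluster alone the adjusted p was 0.00129. The smaller cluster, led by Gdf15, had libraries of enough cells at 4 of the 6 times, with means of 2.58 at ZT6 (n = 2), 1.07 at ZT10 (n = 3) and 2.26 at ZT22 (n = 2) and a value of 0.676 in 1 library of ZT14.

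In all immune-like cells Mmp9 missed the threshold. No member of 8 tested was called there (edgeR, 0.0754% of genes called), and 2 had an unadjusted p under 0.05, as did 8.12% of genes. Mmp9 was one of them, with a peak at 2.29 h and 4.41 times between peak and trough (adjusted p = 0.118). DESeq2's likelihood ratio test called it (adjusted p = 0.000573, 0.254% of genes called), and JTK_Cycle gave an exact p of 0.0404 (2.44% of genes called). In edgeR it was called without ZT2 replicate 3 (adjusted p = 0.00459), without ZT6 replicate 2 (0.0389) or without ZT10 replicate 1 (0.0466). With the macrophage-like clusters left out, an alternative chosen after seeing the data, the adjusted p was 0.993. The levels in the other immune-like cells ran from 0 to 0.197 at ZT2, ZT6 and ZT18 and reached 0.791 in ZT14 replicate 1 and 0.983 in ZT22 replicate 3. Whether the rhythm differed between macrophage-like and other immune-like cells was not tested. Summed over all cells, Mmp9 was called with an adjusted p of 0.0450, together with Mmp14 as 2 of 9 members against 5.13% of genes, and the Mmp9 call was lost in 13 of the 18 fits that left out a library (0.01096 to 0.149). By JTK_Cycle, which called 6.2% of genes in that sum, Mmp14 alone was called (exact p = 0.00830). That sum alone does not separate the number of macrophages from Mmp9 per macrophage. Within macrophage-like cells Mmp9 was lowest at ZT14, as given above. The Fcna cluster made up 8.96, 6.62 and 3.39% of cells in replicates 1, 2 and 3 at ZT14. Its shares were 8.62, 14.1 and 4.56% at ZT2 and 5.78, 3.87 and 4.42% at ZT6. The part of each in the sum was not tested.

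**Figure D4:**
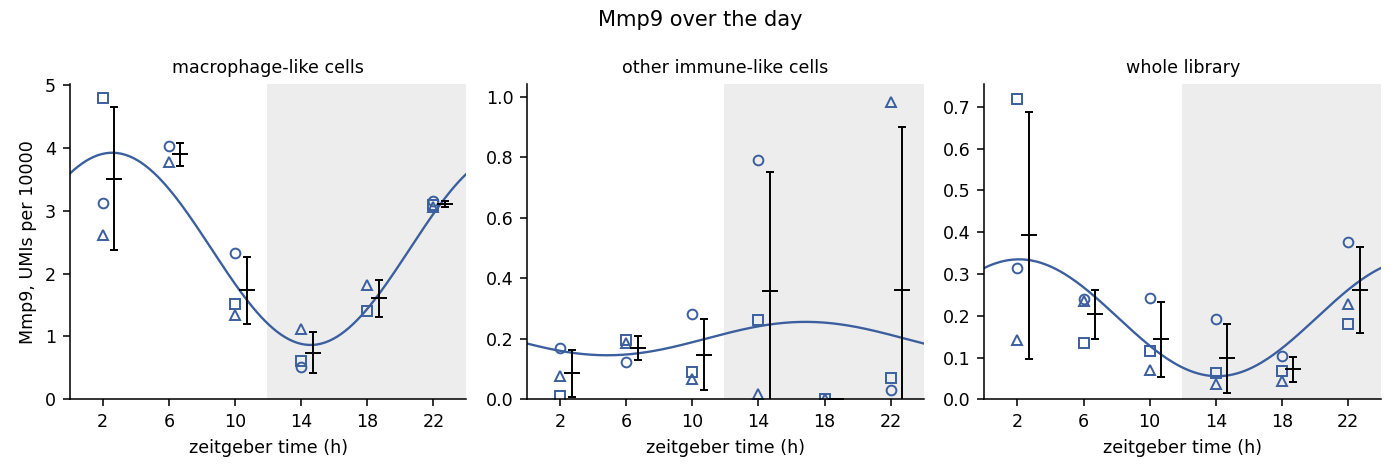
Mmp9 in UMIs per 10000 against zeitgeber time (h, dark period shaded), for macrophage-like cells, other immune-like cells and the whole library, each on its own axis. Symbols are replicates 1 (circle), 2 (square) and 3 (triangle), black bars are mean ± SD cut at 0, and curves are fitted cosines. Macrophage-like cells range from 0.508 at ZT14 to 4.79 at ZT2, and the other immune-like cells stay below 1.

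Timp1, an inhibitor that binds Mmp9, was set apart by 1 library. In fibroblast-like cells its levels at ZT14 were 2.26, 0.263 and 0.225, and the other 15 libraries lay between 0.134 and 0.341. ZT14 replicate 1 was the only library above that range. Timp1 was not called (edgeR, adjusted p = 0.133, peak at 12.8 h), and without that library the peak was at 7.85 h (adjusted p = 0.199). A fit with zeitgeber time as a factor called it (adjusted p = 0.0428), where 8.57% of genes were called. This fit is given only with ZT14 replicate 1 included. Within clusters of the same library the level was 3.75 in the interferon-response cluster, where ZT14 replicates 2 and 3 had 0.235 and 0.207, 1.32 in the Dmkn cluster and 0.799 in the Pcsk6 cluster. In the Cilp cluster it was 1.74, against 0.642 and 0.654 in ZT14 replicates 2 and 3 and 1.37 in ZT2 replicate 3, so high values there were not confined to ZT14 replicate 1. In macrophage-like cells Timp1 was also highest in that library, at 0.390 (adjusted p over all libraries 0.126, and 0.464 without it).

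Other members also had their highest or lowest level in this library. Mmp3 (4.44) and Mmp19 (0.489) had their highest fibroblast-like level of the 18 libraries in ZT14 replicate 1, and Mmp23 (2.46) and Timp3 (8.41) their lowest. The next values were 3.85 for Mmp3 and 0.374 for Mmp19, both in ZT10 replicate 1. For Mmp23 (2.58, ZT6 replicate 2) and Timp3 (8.60, ZT6 replicate 1) the next values were close to the lowest. Beside these values, the 4 interferon-response markers summed to 4.86 UMIs per 10000 in its fibroblast-like cells, against 0.901 to 2.73 in the other libraries. The 5 genes of the monocyte list summed to 19.2, against 7.75 to 13.1. This list does not mark monocytes in fibroblast-like cells. Its median over the other libraries was 11.1 there, against 6.80 in immune-like and 2.83 in macrophage-like cells. The 6 neutrophil markers summed to 0.154 there, against at most 0.0312, and the interferon-response cluster made up 13.6% of its cells, within the range of 2.63 to 14.5% of the others. In its macrophage-like cells the interferon-response markers summed to 11.5, against at most 7.18 elsewhere, and the monocyte markers to 6.25, against at most 4.30. How these marker sums relate to the member levels was not tested.

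The remaining members were not called in fibroblast-like cells. Their adjusted p was 0.867 for Mmp2, 0.786 for Mmp3, 0.729 for Mmp19, 0.995 for Mmp23, 0.904 for Timp2 and 0.620 for Timp3 (edgeR). The means at the 6 times ran from 14.01 to 14.58 for Mmp2, with SDs of 0.881 to 1.76, and the times differed by less than the spread between mice. Timp2 had means of 39.64 to 42 with SDs of 1.85 to 4.45. Timp3 had its highest mean at ZT18 (11.2 ± 0.274, SD, n = 3) and its lowest at ZT6 (9.57 ± 0.911). Mmp9 and Timp4 were too low there to be tested. Among the macrophage-like cells Mmp19 ranged from 0.106 to 0.118 in the 2 libraries of ZT18 and from 0.588 to 2.47 at ZT10, with overlapping values at the other times (adjusted p = 0.390). The Gdf15 cluster, with more Mmp19 than the Fcna cluster, held 39 of 92, 53 of 125 and 20 of 40 macrophage-like cells at ZT10. At ZT18 it held 10 of 32 and 11 of 55, and its part in the Mmp19 levels was not tested. Timp2 in macrophage-like cells lay between 9.54 and 15.2 (adjusted p = 0.565).

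**Figure D5:**
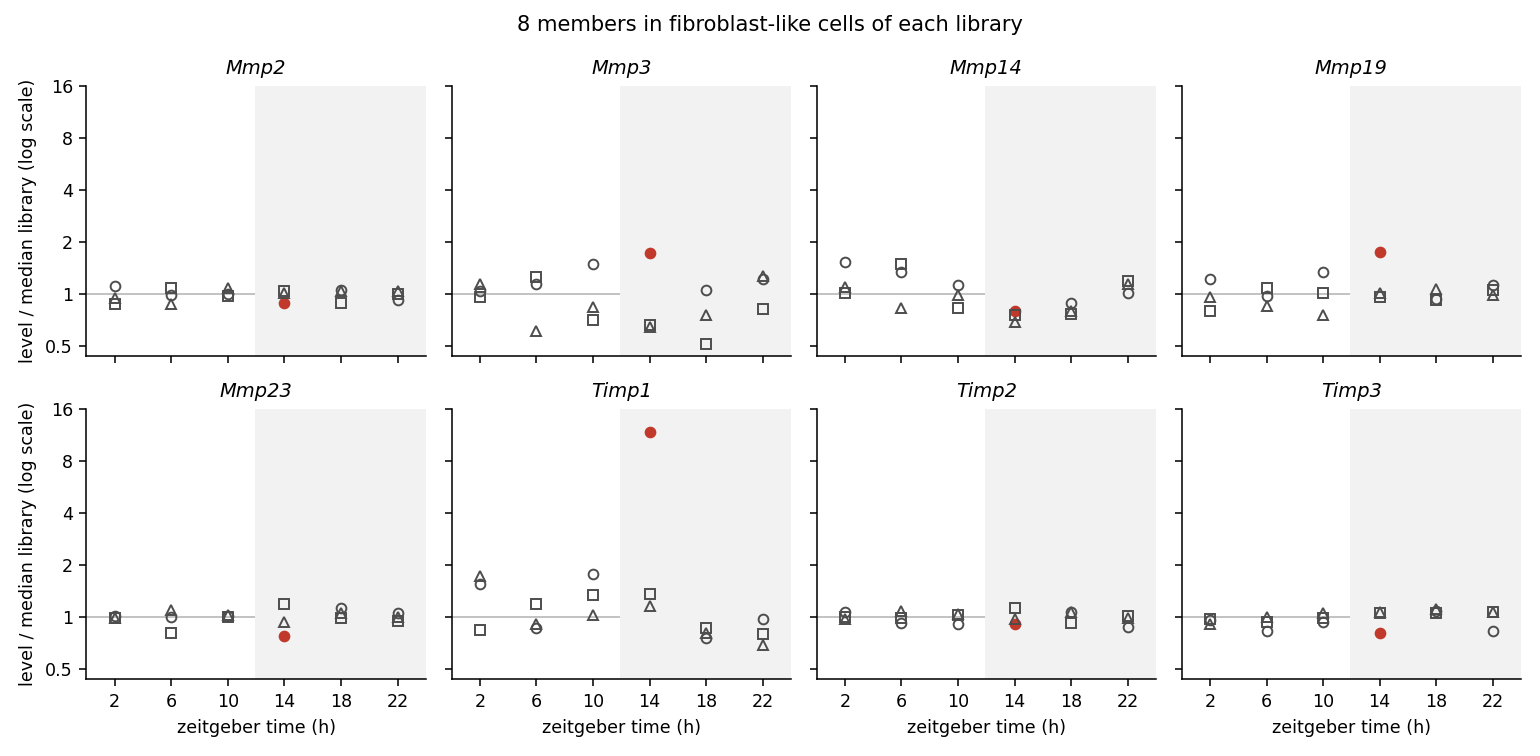
Level of 8 members in fibroblast-like cells of each library, divided by the member's median over 18 libraries (log scale), against zeitgeber time (h, dark period shaded). Circles, squares and triangles are replicates 1, 2 and 3, and the filled red circle is ZT14 replicate 1. Timp1 of that library (2.26 UMIs per 10000 against a median of 0.193) lies far above the other points, and Mmp14 is low at ZT14 and ZT18 in every replicate.

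The difference in rhythm between fibroblast-like and immune-like cells was tested itself. Of 9 members tested none was called and none had an unadjusted p under 0.05 (edgeR, 0.332% of genes called, and 9.05% under 0.05 without adjustment). The smallest p was that of Mmp14, at 0.0526 (adjusted p = 0.556). Immune-like libraries held 0 to 42 UMIs of Mmp14, so its result rests on low counts. For Mmp2, Mmp3 and Timp3 the test cannot decide, since their immune-like levels lay near or below the background ratio of the fibroblast markers. No likeness of rhythm is read for them. For Mmp9, with 190 UMIs in fibroblast-like cells, the adjusted p was 0.913, and it was called without ZT2 replicate 3. That library had the highest fibroblast-like level of Mmp9, at 0.0312, against 0.0161 in the next (ZT10 replicate 1) and a median of 0.00228. The Mmp9 result depends on these few UMIs, so no likeness of its rhythm in both cell types is read from it. DESeq2 was not run on this difference.

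Other genes of pericellular proteolysis were followed as lists. In fibroblast-like cells, where 12.9% of all genes were called, 1 of the 3 tested of the other Mmp genes was called, Mmp11 (stromelysin 3), with a peak at 8.66 h (edgeR, adjusted p = 0.0175). Of the adamalysins, membrane proteases that shed surface proteins, 2 of 7 were called: Adam17, the sheddase of tumour necrosis factor, peaked at 0.5 h (adjusted p = 0.000591) and Adam9 at 13.1 h (adjusted p = 0.00551). Adamts5, an aggrecanase, was the 1 called of 12 Adamts proteases, with a peak at 1.81 h (adjusted p = 0.00326). Plat, a plasminogen activator, was called with a peak at 5.08 h (adjusted p = 0.0414). Among 12 activators and surface partners 1 was called, Cd9, a tetraspanin, with a peak at 11.1 h (adjusted p = 0.00283). None of the 11 cathepsins was called (edgeR), while 3 had an unadjusted p under 0.05, and none of the 10 immediate early genes was, while 7 had, against 28.9% of all genes. Of the called genes named here, which are a selection, all except Adam9 peaked in the light period. The share of such peaks among all called genes is not given here, so no preference for the light period is read from this. In immune-like and macrophage-like cells no gene of these lists was called (edgeR), and 9 of 54 and 11 of 43 tested had an unadjusted p under 0.05, against 8.12% and 12.8% of all genes, while 6 and 8 of the 11 clock genes tested were called.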

How the data were processed

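Reads were aligned to mm10 and UMIs counted by the authors with Cell Ranger 3.1.0, per the labels. The deposited matrices hold raw UMI counts per gene and barcode, before the study's filter on genes and mitochondrial share. The study's thresholds were applied (850 to 7800 genes, mitochondrial share below 13%). Cells were clustered with scanpy 1.11.5 and leidenalg 0.10.2 (2000 variable genes without members and listed genes, 30 components, resolution 0.8), without integration, and named by 3 or more detected markers (6 for fibroblasts and macrophages), so that names may differ from those of the study. A cluster of low UMI count stayed unnamed where no marker of its name was among its leading genes. Doublets were removed by Scrublet score in an alternative only.

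Counts were summed per library and type (at least 20 cells). Cosine and sine terms were tested with edgeR 4.0.16 (quasi-likelihood test, TMM, filterByExpr, Benjamini-Hochberg over all genes tested, threshold 0.05) in R 4.3.3. DESeq2 1.42.0 and JTK_Cycle, the study's test (periods 20, 24 and 28 h, p multiplied by its 18 templates), were alternatives. The test of a difference in rhythm had the library as a block. SEs of fitted cosines are jackknife estimates over libraries. On simulated data, 36 of 50 genes with a log2 amplitude of 0.5 were recovered among 12670 genes for fibroblast-like cells and 18 of 50 among 10425 for immune-like cells. Intervals and floors cover counting error only.

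The replicate number is the day of collection in the titles. Deviations from group means had a median correlation of 0.0358 over 45 same-day pairs in fibroblast-like cells (10 above 0.1) and 0.0234 in immune-like cells (9 above 0.1), and the main fits had no block. The members and lists were chosen with earlier results of these data known. All 10 members are named, and of each list at most the 3 called genes with the smallest adjusted p in fibroblast-like cells. A result of the plasminogen activation list is not reported here. Of 17 other Mmp genes listed, 16 were matched. Promoters are from RefSeq (GRCm38.p6) and positions from a GENCODE annotation of GRCm38. Protein sequences were not analysed here.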

Additional observations from a re-analysis of the deposited data

How the results depend on the processing

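Over the alternatives that give a peak, that of each called member moved by at most 0.581 h. In fibroblast-like cells the number of members called was 1 in the main fit, in every fit that left out a library and in 8 of 10 other alternatives, 2 with zeitgeber time as a factor (Timp1 joined) and 0 by JTK_Cycle. In immune-like cells it was 0, and 1 without a filter on low counts, with DESeq2 and by JTK_Cycle, and 0 to 1 over the fits without 1 library (Mmp9 without ZT2 replicate 3, ZT6 replicate 2 or ZT10 replicate 1). In macrophage-like cells it was 1, and 3 with no filter (Timp1 and Mmp19 joined), and 1 to 2 over the fits without 1 library (Timp1 without ZT22 replicate 2, adjusted p = 0.0386). In the whole library it was 2, and 1 with no filter, 0 with zeitgeber time as a factor, 1 by JTK_Cycle and 1 to 2 over the fits without 1 library. Over the 4 fibroblast-like clusters it was 4, 7 with no filter, and 3 to 5 over those fits, and for the difference in rhythm 0, and 0 to 1. The cause of these changes was not tested. With the replicate number as a block, the counts were 1, 0, 1, 2, 4 and 0 in the same order, and the members called were the same. Over all genes, the counts called moved beyond 1.5 times in immune-like cells (8, against 20 with no filter and 27 by DESeq2), macrophage-like cells (54, against 581, 158 and, with time as a factor, 95), fibroblast-like cells (1659, against 1099 with time as a factor) and the whole library (740, against 1640 by DESeq2 and 339 with time as a factor). Leaving out 1 library gave 1186 to 1823 in fibroblast-like cells, 5 (ZT2 replicate 1) to 17 (ZT14 replicate 1) in immune-like cells, with 14 without ZT10 replicate 1, and 469 (ZT14 replicate 2) to 1007 in the whole library, with 483 without ZT2 replicate 1. In macrophage-like cells it gave 27 (ZT6 replicate 1) to 138 (ZT14 replicate 1), and 30 to 33 without ZT2 replicate 1 or 2, ZT6 replicate 3, ZT10 replicate 2 or ZT14 replicate 3. For the difference in rhythm, 38 genes were called, and 17 to 24 without ZT2 replicate 1 or 2 or ZT14 replicate 2 or 3, and in the Ifit1 cluster 245, and 151 without ZT2 replicate 1. As for levels, 2 members (Mmp9 and Mmp19) were higher in immune-like cells in most libraries under each of the alternatives for cell types. The ratio of Mmp2 was 0.00546 with cells taken by marker UMIs, against 0.0120.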
